A study of Arabidopsis thaliana with 18 samples.

Results

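Rosettes of wild type (WT) Arabidopsis thaliana supplied with no nitrate were compared with WT rosettes supplied with 10 mM nitrate. The comparison took the 3 WT libraries titled 0 mM and the 3 titled 10 mM, 6 of the 18 libraries of the series, and every gene row of their count tables. The tables listed 32744 genes, and 18358 of them had enough counts to be tested. Plants of both groups were grown on potting soil and harvested when the first flower buds were visible, and the labels give them no mutation, transgene or further treatment. The sources used here give neither the ecotype of the WT plants nor the nitrogen that the soil itself held, so 0 mM names the nitrate supplied and not the nitrogen available. The other 12 libraries were WT rosettes at 2 mM nitrate and rosettes of era1, a mutant in the beta subunit of protein farnesyltransferase whose genotype label prints the locus AT5G66470, at 0, 2 and 10 mM. The title of the series names nitrogen starvation as the setting of the study.

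Nitrate enters the root, travels in the xylem and is stored in leaf vacuoles or reduced in the leaf. Nitrate reductase in the cytosol makes nitrite, nitrite reductase in the plastid makes ammonium, and glutamine synthetase and glutamate synthase bind the ammonium to a carbon skeleton supplied as 2-oxoglutarate. Nitrate is also a signal: NIN-like (RWP-RK) transcription factors and calcium-dependent kinases relay it to the genes of uptake and assimilation, and plants short of nitrogen are known to store starch, to make anthocyanins and to move nitrogen out of old leaves.

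Without nitrate 9843 of the 18358 tested genes (53.6%) differed from 10 mM nitrate at a false discovery rate (FDR) under 0.05 in the quasi-likelihood test of edgeR. Of these, 4945 genes (26.9% of those tested) were higher and 4898 (26.7%) were lower, and the median log2 fold change of all tested genes was 0.01. Counts of list members given below are to be read against these shares. A change of at least 2-fold was shown by 1444 higher genes (7.87%) and 1039 lower genes (5.66%), so most of the differences were small. Calls were more frequent among abundant genes, at 68.7% in the highest of 4 equal classes of genes by level and 33.8% in the lowest, while the median absolute log2 fold change was 0.362 and 0.548. In 9364 of the 9843 called genes the 3 libraries at 0 mM did not overlap the 3 libraries at 10 mM. Full separation of the groups, where stated below for a called gene, was therefore the usual case. Over all tested genes, 5506 (30.0%) lay wholly higher at 0 mM and 5447 (29.7%) wholly lower. Below, a level is in CPM, a gene's counts divided by the TMM-scaled size of its library, values of single libraries are in the order of their replicate numbers, and means are ± SD with n = 3 libraries. A gene is said to have risen or fallen at 0 relative to 10 mM only where it passed the test, and its change is a log2 fold change of 0 over 10 mM ± SE with the FDR of edgeR. The test itself returns no SE. Each SE here is the absolute log2 fold change divided by the square root of the F statistic of the test. The libraries are called biological replicates, but whether each came from its own plant or from a pool is not stated, and every p-value therefore measures no more than the spread among the libraries.

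**Figure D1:**
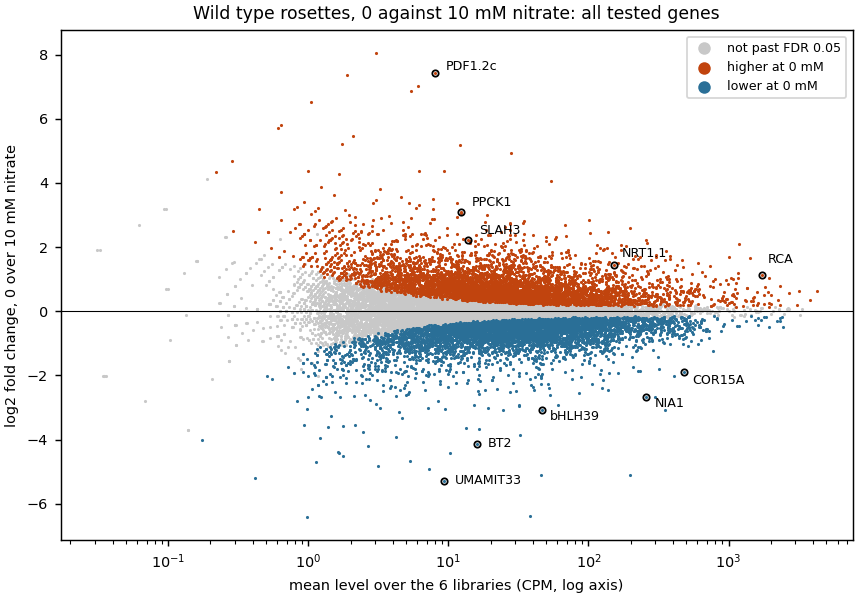
Log2 fold change of 0 over 10 mM nitrate (vertical) against the mean CPM over the 6 WT libraries (horizontal, log axis) for the tested genes. Orange points are the 4945 genes higher at 0 mM, blue points the 4898 lower ones and grey points those not past the threshold, with 10 genes of the text circled.

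The 6 libraries held 4748044 to 5594584 gene counts and 20738 to 21131 detected genes each. The rosette label was checked on marker genes. The 6 leaf markers summed to between 15300 and 16300 CPM at 0 mM and between 12000 and 12300 CPM at 10 mM, whereas 7 floral markers summed to at most 5.41 CPM and 5 of 7 seed storage markers had no count in any of the 6 libraries. The 7 root markers summed to between 24.5 and 35.1 CPM at 0 mM and between 23.1 and 36.6 CPM at 10 mM, so these ranges overlapped. Organelle-encoded genes took 4.13 ± 0.184% of gene counts at 0 mM and 2.09 ± 0.148% at 10 mM, and 4.97 ± 0.245% and 2.15 ± 0.222% of read records had no unique alignment (two-sided exact permutation p = 0.1 for each, the smallest that 3 against 3 libraries allow). The part of these shares in the results below was not tested. In bulk tissue, fewer cells of a type and less RNA per cell cannot be told apart.

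Nitrate transporter genes were mostly higher without nitrate, and the vacuolar importer was lower. Of 19 tested members of the nitrate transport list, 12 rose and 1 fell, against 26.9% and 26.7% of all genes, and the median log2 fold change was 0.89. NRT1.1 (AT1G12110), the dual-affinity transporter and nitrate sensor, was at 80.7, 82.2 and 79.7 CPM at 10 mM and 233, 205 and 226 CPM at 0 mM, a change of 1.45 ± 0.09, FDR = 3.5e-12. NRT1.5 (AT1G32450), which loads nitrate into the xylem, was at 16.3, 27.6 and 22.7 CPM and 52.3, 60.9 and 53.8 CPM (1.33 ± 0.17, FDR = 7.3e-07). In both genes every 0 mM library lay above every 10 mM library. NRT2.7 (AT5G14570), a vacuolar nitrate transporter best known from seeds, was at 16.96, 14.3 and 16.7 CPM with nitrate and 39.3, 38.0034 and 42.3 CPM without (1.32 ± 0.14, FDR = 1.9e-08). NRT1.7 (AT1G69870), which loads nitrate into the phloem of old leaves for export to young ones, went from 21.4 ± 2.22 to 39.6 ± 8.53 CPM (0.89 ± 0.15, FDR = 2.9e-05). The anion channel gene SLAH3 (AT5G24030) was at 4.70, 6.85 and 3.12 CPM and 23.8, 21.4 and 23.1 CPM (2.22 ± 0.18, FDR = 3.9e-10).

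CLC-A (AT5G40890), which exchanges nitrate for protons to fill the leaf vacuole, was the only member of the transport list that fell, from 192, 174 and 171 CPM to 81.4, 75.4 and 79.7 CPM (-1.18 ± 0.09, FDR = 1.3e-10). Its relative CLC-B (AT3G27170) was at 25.3 ± 2.68 and 26.3 ± 2.61 CPM and did not pass the test (0.05 (FDR = 0.746)). The low-affinity carrier NRT1:2 (AT1G69850) was at 92.5 ± 10.0 and 81.0 ± 9.07 CPM (-0.19, FDR = 0.0917). Without WT library 1 at 10 mM it passed at -0.28, so that 2 members fell. Some of the rises also hung on single libraries. NRT2.6 (AT3G45060), the largest rise (4.33), lost its call without library 2 or 3 at 0 mM or any library at 10 mM (3.75 to 4.41). NRT1.8 (AT4G21680), at 2.15, lost it without library 1 at 0 mM (1.45). The anion channel gene OZS1 (AT1G12480) lost it without library 2 at 0 mM (0.83) or library 2 or 3 at 10 mM (1.29 and 1.26). The high-affinity root transporters were close to absent from the rosette in both groups. NRT2.2 (AT1G08100) and NRT2.4 (AT5G60770) had no count in the 6 libraries, NRT2:1 (AT1G08090) had 1 and 5 counts in the 3 libraries at 10 and 0 mM, and NRT2.5 (AT1G12940) had 1 and 2. Their accessory protein gene WR3 (AT5G50200) was measured, at 4.29, 5.996 and 4.79 CPM with nitrate and 12.3, 11.4 and 9.43 CPM without (1.13 ± 0.20, FDR = 4.6e-05). The root excretion transporter NAXT1 (AT3G45650) rose at a low level, from 2.09 ± 0.454 to 4.50 ± 1.17 CPM (1.1 ± 0.32, FDR = 0.00624). Of 3 members that the reference table names only as major facilitator proteins, AT2G26690 rose from 186 ± 2.98 to 297 ± 19.6 CPM (0.67 ± 0.09, FDR = 8.1e-07), AT3G16180 rose by 0.42 and AT1G52190 did not pass the test (0.07 (FDR = 0.657)).

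**Figure D2:**
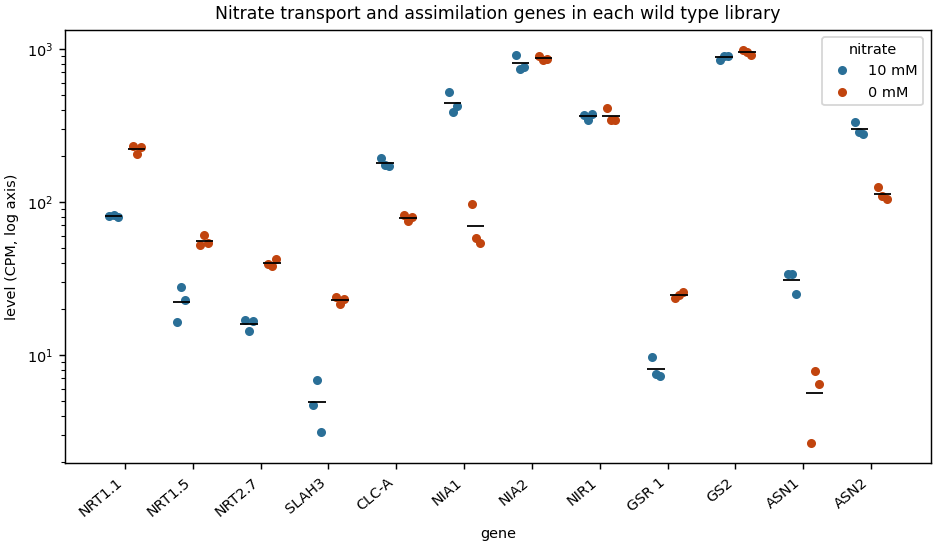
Levels (CPM, log axis) of 12 genes of nitrate transport and assimilation in each WT library at 10 mM (blue) and 0 mM (orange) nitrate, with bars at the group means. NIA1, CLC-A, ASN1 and ASN2 were lower in every 0 mM library, whereas the groups overlapped for NIA2 and NIR1; levels of different genes are not comparable.

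The genes of nitrate reduction did not move together. NIA1 (AT1G77760), the inducible nitrate reductase gene, was at 521, 387 and 423 CPM at 10 mM and 96.1, 57.8 and 54.2 CPM at 0 mM, with library 1 the highest of its group at both doses, and fell (-2.68 ± 0.18, FDR = 1.3e-11). NIA2 (AT1G37130), the gene of the main leaf isoform, was at 905, 742 and 761 CPM and 902, 840.0 and 855 CPM (0.11 (FDR = 0.274)). NIR1 (AT2G15620), encoding nitrite reductase, was at 369, 345 and 372 CPM and 413, 343 and 340.1 CPM (0.01 (FDR = 0.935)). For both genes the groups overlapped. Of 13 tested members of the list 2 rose (15.4%) and 3 fell (23.1%), no more than the 26.9% and 26.7% of all genes, and the median was 0.01. The plastid glucose-6-phosphate dehydrogenase gene G6PD2 (AT5G13110), which supplies reductant, rose from 8.38, 11.99 and 10.2 CPM to 21.7, 19.4 and 22.2 CPM (1.05 ± 0.19, FDR = 5.4e-05). B73 (AT5G20990), encoding the last enzyme of molybdenum cofactor synthesis, fell from 43.5 ± 0.740 to 30.9 ± 4.24 CPM (-0.49 ± 0.12, FDR = 9.2e-04), and UPM1 (AT5G40850), which makes the sirohaem precursor needed by nitrite reductase, did not pass the test (0.30 (FDR = 0.113)) but passed in a fit on only the libraries compared (0.31, FDR = 0.0445).

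Cytosolic glutamine synthetase genes rose, and the plastid gene did not pass the test. Of 17 tested members of the ammonium assimilation list 6 rose (35.3%) and 7 fell (41.2%), against 26.9% and 26.7% of all genes. GSR 1 (AT5G37600), a cytosolic glutamine synthetase, was at 9.60, 7.49 and 7.29 CPM at 10 mM and 23.61, 24.5 and 25.7 CPM at 0 mM (1.59 ± 0.16, FDR = 1.1e-08), and the cytosolic genes GLN1;4 (AT5G16570) (1.52 ± 0.30, FDR = 1.3e-04) and GLN1.3 (AT3G17820) (1.02 ± 0.12, FDR = 1.5e-07) rose too. GS2 (AT5G35630), the plastid isoform that also recaptures photorespiratory ammonium, was at 879 ± 31.5 and 947 ± 38.2 CPM (0.11 (FDR = 0.18)). Ferredoxin-dependent glutamate synthase GLU1 (AT5G04140) rose from 318 ± 3.76 to 393 ± 51.8 CPM (0.30 ± 0.08, FDR = 0.0022), whereas the NADH-dependent enzyme GLT1 (AT5G53460) fell from 121, 145 and 131 CPM to 103, 98.3 and 86.5 CPM (-0.47 ± 0.10, FDR = 2.8e-04). The list's summed level was 2305 CPM at 10 mM and 2302 CPM at 0 mM.

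Asparagine synthetase genes, whose product stores and carries nitrogen when carbon is short, all fell. ASN1 (AT3G47340), the dark-induced gene, was at 33.9, 33.8 and 24.98 CPM at 10 mM and 2.64, 7.84 and 6.47 CPM at 0 mM (-2.45 ± 0.33, FDR = 1.2e-06). ASN2 (AT5G65010) was at 335, 287 and 275 CPM and 124, 109 and 104 CPM (-1.41 ± 0.09, FDR = 1.4e-11), and ASN3 (AT5G10240) changed (-0.60 ± 0.14, FDR = 9.0e-04). The groups overlapped for none of these 3 genes. GDH1 (AT5G18170), a mitochondrial glutamate dehydrogenase that releases ammonium from glutamate, fell from 39.9976 ± 3.15 to 27.4 ± 0.871 CPM (-0.55 ± 0.12, FDR = 3.3e-04).

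Among regulators of the nitrate response, the kinase genes CIPK23 and CIPK3 and the repressor genes LBD38 and LBD39 fell while several RWP-RK genes rose. Of 30 tested members of the regulator list 13 rose (43.3%) and 11 fell (36.7%), against 26.9% and 26.7% of all genes, with a median of 0.15. BT2 (AT3G48360), a BTB and TAZ domain protein that lowers nitrate uptake, was at 42.7, 23.1 and 25.2 CPM at 10 mM and 1.13, 1.18 and 2.77 CPM at 0 mM (-4.14 ± 0.35, FDR = 8.3e-10). CIPK23 (AT1G30270), the kinase that phosphorylates NRT1.1, was at 80.7, 81.4 and 82.4 CPM and 40.8, 35.8 and 43.8 CPM (-1.02 ± 0.10, FDR = 9.4e-09). CIPK3 (AT2G26980), another kinase of the family that binds calcineurin B-like calcium sensors, was at 136, 106 and 116 CPM and 36.3, 33.7 and 31.2 CPM (-1.82 ± 0.11, FDR = 3.5e-12). In these 3 genes every 0 mM library was lower. The calcium sensor gene CBL1 (AT4G17615) went the other way, from 15.2 ± 1.62 to 26.5 ± 6.74 CPM (0.81 ± 0.19, FDR = 8.7e-04). The gene HRS1 (AT1G13300), a Myb-type repressor that nitrate induces, had 28 counts over the 3 libraries at 10 mM and 0 at 0 mM, at least 10.3-fold lower taking 3 counts over the group as the detection floor.

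LBD38 (AT3G49940) and LBD39 (AT4G37540), LBD proteins that repress nitrate-responsive and anthocyanin genes, fell from 48.6, 41.3 and 46.4 to 22.7, 16.8 and 20.3 CPM (-1.19 ± 0.16, FDR = 1.5e-06) and from 30.4, 28.3 and 27.3 to 17.38, 12.7 and 11.3 CPM (-1.05 ± 0.16, FDR = 4.1e-06). HBI1 (AT2G18300), a growth-promoting bHLH factor, fell from 93.6 ± 4.26 to 69.2 ± 5.23 CPM (-0.44 ± 0.10, FDR = 4.6e-04), and TGA4 (AT5G10030), a bZIP factor of the nitrate response in roots, fell (-0.71 ± 0.16, FDR = 4.4e-04). NLP7 (AT4G24020), the nitrate-binding RWP-RK factor at the head of the response, was at 17.2, 13.7 and 16.9 CPM with nitrate and 19.1, 24.9 and 25.3 CPM without (0.53 ± 0.14, FDR = 0.0024). Of the RWP-RK genes without a symbol, AT4G38340 rose from 2.04, 1.93 and 0.625 CPM to 12.7, 12.7 and 16.6 CPM (3.18 ± 0.28, FDR = 1.4e-09), AT1G64530 rose by 1.16, AT1G20640 by 1.02 and AT2G43500 by 0.90. TCP20 (AT3G27010), a partner of NLP factors, rose from 5.99 ± 1.09 to 10.7 ± 1.71 CPM (0.83 ± 0.21, FDR = 0.00139). The GATA factors CGA1 (AT4G26150) and GNC (AT5G56860), nitrate-inducible regulators of chloroplast development, rose (1.62 ± 0.17, FDR = 3.5e-08, and 0.32 ± 0.08, FDR = 0.00157). CRF4 (AT4G27950), a cytokinin response factor, was at 1.32 CPM in both groups. Of the receptors for CEP peptides that report root nitrogen to the shoot, XIP1 (AT5G49660) rose (0.65 ± 0.14, FDR = 3.4e-04) and AT1G72180, a leucine-rich receptor kinase gene, fell (-0.57 ± 0.11, FDR = 8.2e-05).

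Transporters of ammonium and of organic nitrogen were mostly higher without nitrate. Of 32 tested members 18 rose and 4 fell, with a median of 0.51. AMT1;2 (AT1G64780), an ammonium transporter, was at 79.5, 68.7 and 68.9 CPM at 10 mM and 221, 234 and 249.9 CPM at 0 mM (1.7 ± 0.10, FDR = 1.0e-12). AAP4 (AT5G63850), an amino acid permease, was at 22.7, 23.3 and 24.2 CPM and 76.1, 79.3 and 68.8 CPM (1.67 ± 0.09, FDR = 1.0e-12). The broad amino acid carrier LHT1 (AT5G40780) was at 1.84, 3.85 and 1.46 CPM and 13.6, 8.82 and 12.6 CPM (2.29 ± 0.28, FDR = 2.2e-07). Every 0 mM library of these genes exceeded every 10 mM library, and the same held for the amino acid facilitator UMAMIT11 (AT2G40900) (1.82 ± 0.15, FDR = 5.8e-10) and the proline carrier ProT3 (AT2G36590) (2.09 ± 0.27, FDR = 4.9e-07). AAP1 (AT1G58360), another amino acid permease, fell from 179 ± 9.53 to 123 ± 5.47 CPM (-0.55 ± 0.10, FDR = 9.0e-05), and AAT1 (AT4G21120), a cationic amino acid carrier, fell (-1.33 ± 0.33, FDR = 0.00145). UMAMIT33 (AT4G28040) was at 22.3, 18.0 and 14.4 CPM with nitrate and 0.378, 0.196 and 0.739 CPM without (-5.29 ± 0.33, FDR = 4.9e-12), the largest drop of the list.

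Of 28 tested genes of amino acid and purine breakdown 6 rose (21.4%) and 7 fell (25%), which is no more than the 26.9% and 26.7% of all genes. AGT3 (AT2G38400), an aminotransferase of the glyoxylate type, fell from 29.2, 30.4 and 27.9 CPM to 7.56, 9.79 and 10.9 CPM (-1.63 ± 0.15, FDR = 2.1e-09), glutamate decarboxylase GAD (AT5G17330) fell (-1.98 ± 0.27, FDR = 1.3e-06), and methionine gamma-lyase MGL (AT1G64660) fell from 123 ± 1.08 to 56.6 ± 6.75 CPM (-1.11 ± 0.12, FDR = 2.9e-08). DIN4 (AT3G13450) and IVD (AT3G45300), of branched-chain amino acid oxidation, fell (-1.27 ± 0.16, FDR = 3.6e-07, and -0.70 ± 0.16, FDR = 4.8e-04). In purine recycling, XDH1 (AT4G34890), xanthine dehydrogenase, and UAH (AT5G43600), which releases ammonium from ureidoglycolate, rose (0.73 ± 0.18, FDR = 0.00124, and 0.67 ± 0.17, FDR = 0.00144). P5CS1 (AT2G39800), the rate-limiting enzyme of proline synthesis, fell from 459.6, 468 and 418 CPM to 286, 283 and 268 CPM (-0.68 ± 0.12, FDR = 2.8e-05).

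Genes that supply organic acids were mostly higher, 11 of 15 tested members rising and 2 falling, with a median of 0.56. PPCK1 (AT1G08650), the kinase that activates phosphoenolpyruvate carboxylase, was at 2.66, 2.36 and 2.71 CPM at 10 mM and 23.2, 19.6 and 23.3 CPM at 0 mM (3.09 ± 0.20, FDR = 9.4e-12). PPDK (AT4G15530), pyruvate orthophosphate dikinase, was at 57.2, 61.9 and 48.3 CPM and 163, 170.2 and 166 CPM (1.58 ± 0.10, FDR = 9.2e-12). Both genes separated the groups fully. The carboxylase gene PPC1 (AT1G53310) rose (0.66 ± 0.10, FDR = 2.9e-06) while its homologue PPC3 (AT3G14940) fell from 15.6 ± 1.46 to 6.02 ± 0.408 CPM (-1.37 ± 0.17, FDR = 3.2e-07). DiT1 (AT5G12860), which brings 2-oxoglutarate into the plastid, rose (0.67 ± 0.10, FDR = 3.8e-06), and AOX1A (AT3G22370), the mitochondrial alternative oxidase, rose as well (1.19 ± 0.12, FDR = 8.1e-09). Cytosolic fumarase FUM2 (AT5G50950), named for its difference between genotypes, rose from 88.7, 92.3 and 95.4 CPM to 188, 195 and 200.002 CPM (1.08 ± 0.09, FDR = 2.2e-10).

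More starch genes rose than fell, on the synthetic and on the degrading side. Of 18 tested synthesis genes 10 rose and 2 fell (median 0.56), and of 20 degradation genes 10 rose and 2 fell (median 0.26). Only 1 synthesis gene fell without WT library 3 at 0 mM or library 1 at 10 mM, and only 1 degradation gene fell without library 2 at 0 mM. APL3 (AT4G39210), a large subunit of ADP-glucose pyrophosphorylase, was at 12.3, 15.6 and 12.7 CPM with nitrate and 51.8, 49.0 and 55.6 CPM without (1.95 ± 0.14, FDR = 3.2e-11). GBSS1 (AT1G32900), which makes amylose, was at 169.6, 171 and 181 CPM and 575, 516 and 499 CPM (1.61 ± 0.09, FDR = 1.0e-12). CT-BMY (AT4G17090), a plastid beta-amylase, was at 266, 243 and 272 CPM and 677, 709.5 and 665 CPM (1.39 ± 0.09, FDR = 6.2e-12). The increase in all 3 exceeded the spread between libraries. SS4 (AT4G18240), which starts starch granules, rose (1.16 ± 0.16, FDR = 1.7e-06) while SS1 (AT5G24300) fell (-0.52 ± 0.08, FDR = 2.7e-06), and SEX1 (AT1G10760) and PWD (AT5G26570), the dikinases that open the granule, rose (0.84 ± 0.10, FDR = 1.1e-07, and 0.93 ± 0.10, FDR = 5.1e-08). The synthesis list summed to 1010 ± 14.7 CPM at 10 mM and 1577 ± 95.1 CPM at 0 mM. For the degradation list the sums were 850.0 ± 17.1 and 1495 ± 23.0 CPM.

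Of 33 tested genes of sugar transport and of sucrose, raffinose and trehalose phosphate synthesis 14 rose (42.4%) and 8 fell (24.2%), or 5 without WT library 1 at 10 mM, against 26.9% higher and 26.7% lower of all genes. SPS1F (AT5G20280), a sucrose phosphate synthase, was at 27.8, 26.3 and 22.9 CPM at 10 mM and 80.8, 84.4 and 79.1 CPM at 0 mM (1.66 ± 0.09, FDR = 1.0e-12). Of its homologues SPS2F (AT5G11110) rose (1.07 ± 0.18, FDR = 1.9e-05) and SPS3F (AT1G04920) did not pass the test (-0.14 (FDR = 0.827)). The sucrose exporters SWEET13 (AT5G50800) and SWEET12 (AT5G23660) went from 2.66 ± 0.886 to 22.1 ± 6.47 CPM (3.06 ± 0.27, FDR = 1.1e-09) and from 6.90 ± 1.096 to 16.4 ± 3.14 CPM (1.25 ± 0.18, FDR = 2.0e-06), and SWEET11 (AT3G48740) rose (0.85 ± 0.12, FDR = 1.3e-06). SAG29 (AT5G13170), the SWEET15 gene of the same family, fell (-1.0 ± 0.35, FDR = 0.0199), a call lost without WT library 3 at 0 mM (-0.60), without library 1 at 10 mM (-0.62) and in DESeq2 (-0.98). GolS2 (AT1G56600), galactinol synthase of the raffinose pathway, rose (1.47 ± 0.12, FDR = 3.6e-10) and the hexose carrier STP4 (AT3G19930) rose as well (1.42 ± 0.14, FDR = 1.5e-08). The low-energy list mixed markers of darkness or low energy with subunits and transcription factors of the sugar-sensing kinase SnRK1. Of its 16 members 10 were lower and 4 higher, with a median of -0.98. SEN1 (AT4G35770) was at 77.2, 60.2 and 45.2 CPM with nitrate and 3.21, 3.13 and 6.10 CPM without (-3.86 ± 0.29, FDR = 7.5e-11). DIN10 (AT5G20250), a raffinose synthase family gene, was at 22.1, 15.6 and 17.1 CPM and 6.42, 6.46 and 5.36 CPM (-1.59 ± 0.25, FDR = 9.3e-06). bZIP1 (AT5G49450), a transcription factor of the SnRK1 pathway, was at 36.2, 32.1 and 32.7 CPM and 9.26, 10.4 and 13.7 CPM (-1.60 ± 0.17, FDR = 2.3e-08). All 3 were lower in every 0 mM library. AKINBETA1 (AT5G21170), a regulatory subunit of SnRK1, fell (-1.62 ± 0.11, FDR = 2.3e-11), TPS11 (AT2G18700) and TPS10 (AT1G60140) of the trehalose phosphate family fell (-1.80 ± 0.14, FDR = 1.4e-10, and -1.24 ± 0.14, FDR = 8.0e-08), and the catalytic subunit KIN10 (AT3G01090) rose (0.47 ± 0.12, FDR = 0.0021). DIN9 (AT1G67070) of the same list rose (1.04 ± 0.29, FDR = 0.00437), at 2.29 and 4.75 CPM.

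Flavonoid genes rose along the pathway. Among early phenylpropanoid and flavonol enzymes 12 of 17 rose and 1 fell (median 0.92), and among late anthocyanin enzymes 6 of 7 rose and 0 fell (median 1.78; the seventh passed in neither direction). PAL1 (AT2G37040), the entry enzyme, was at 75.4, 84.8 and 81.6 CPM at 10 mM and 190.4, 184 and 165 CPM at 0 mM (1.16 ± 0.11, FDR = 3.1e-09). FLS1 (AT5G08640), which makes flavonols, was at 24.1, 31.3 and 33.5 CPM and 135, 101 and 87.1 CPM (1.86 ± 0.15, FDR = 4.7e-10). 4CL3 (AT1G65060), the coumarate ligase of the flavonoid branch, was at 24.7, 20.3 and 23.7 CPM and 138, 109 and 102 CPM (2.34 ± 0.12, FDR = 4.4e-13). These genes separated the groups fully. DFR (AT5G42800) and LDOX (AT4G22880), which lead into anthocyanins, rose from 14.5, 16.3 and 13.5 to 53.1, 40.7 and 34.9 CPM (1.54 ± 0.22, FDR = 2.5e-06) and from 11.4, 13.9 and 13.5 to 53.3, 37.0 and 43.3 CPM (1.78 ± 0.19, FDR = 4.2e-08), and GSTF12 (AT5G17220), needed to bring anthocyanin into the vacuole, rose (2.38 ± 0.26, FDR = 4.9e-08). The regulator PAP1 (AT1G56650), a MYB factor that activates the late genes, was at 8.58, 9.42 and 9.37 CPM and 40.6, 36.0 and 44.4 CPM (2.14 ± 0.16, FDR = 1.3e-10). In the regulator list 5 of 11 tested members rose and 1 fell. The lower call was lost without library 1 at 10 mM and 2 were lower without library 3 at 10 mM. The list's other MYB and bHLH activators were near the limit of detection at 10 mM: MYB113 (AT1G66370) had 0 and 19 counts over 3 libraries, at least 5.76-fold higher against the same floor. SNG1 (AT2G22990), which makes the sinapoyl malate that screens ultraviolet light, fell from 826, 819 and 852 CPM to 452, 415 and 464 CPM (-0.91 ± 0.06, FDR = 1.9e-11).

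Calvin cycle genes were mostly higher, while the photosystem genes split. Of 21 tested Calvin cycle genes 16 rose and 3 fell (median 0.33). RCA (AT2G39730), Rubisco activase, was at 1041, 1113 and 1103 CPM at 10 mM and 2343, 2437 and 2408 CPM at 0 mM (1.14 ± 0.07, FDR = 8.1e-12). SBPASE (AT3G55800), sedoheptulose bisphosphatase, was at 237, 237 and 252 CPM and 499.8, 508 and 443 CPM (1.0 ± 0.09, FDR = 1.8e-09). The most abundant small subunit gene of Rubisco, RBCS1A (AT1G67090), rose from 3332 ± 140.1 to 5171 ± 319 CPM (0.63 ± 0.06, FDR = 1.3e-08), with reads shared by near-identical copies set aside before counting. CP12-1 (AT2G47400), which binds and restrains Calvin cycle enzymes in the dark, fell (-0.46 ± 0.06, FDR = 5.3e-07). The list summed to 21321 ± 623 CPM with nitrate and 28611 ± 1465 CPM without. Photorespiration genes followed, 8 of 14 rising and 0 falling, but 5 of 14 without library 1 at 0 mM, library 2 at 10 mM or library 3 at 10 mM. GDCH (AT2G35370), a glycine decarboxylase subunit, rose (0.58 ± 0.08, FDR = 2.2e-06) and SHM1 (AT4G37930), the mitochondrial serine hydroxymethyltransferase, rose as well (0.44 ± 0.07, FDR = 2.4e-05).

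Of 43 photosystem and antenna genes 17 rose (39.5%) and 12 fell (27.9%), against 26.9% and 26.7% of all genes, with a median of 0.09. LHCB4.3 (AT2G40100) and LHCB5 (AT4G10340), minor antenna proteins of photosystem II, rose from 29.4, 40.04 and 39.8 to 159, 115 and 97.04 CPM (1.76 ± 0.17, FDR = 8.9e-09) and from 1255 ± 19.9 to 1924 ± 117 CPM (0.62 ± 0.07, FDR = 3.6e-08). NPQ4 (AT1G44575), the PsbS protein that releases excess light as heat, rose (0.78 ± 0.08, FDR = 1.4e-08), and PETC (AT4G03280), the Rieske protein, rose as well (0.86 ± 0.07, FDR = 2.6e-10). In the other direction PETE1 (AT1G76100), a plastocyanin, fell from 668, 676 and 661 CPM to 430.5, 427 and 423 CPM (-0.65 ± 0.06, FDR = 4.9e-09), and LHCA1 (AT3G54890) of photosystem I fell (-0.50 ± 0.07, FDR = 1.1e-06). PSAO (AT1G08380) and LHCB2.2 (AT2G05070) were among the 10 genes that lost the most CPM (-0.31 ± 0.06, FDR = 2.4e-04, and -0.29 ± 0.06, FDR = 2.0e-04), and CAB3 (AT1G29910) fell (-0.48 ± 0.05, FDR = 8.6e-08) while CAB1 (AT1G29930) of the same near-identical family rose (0.62 ± 0.07, FDR = 7.2e-08). The photosystem list summed to 62753 and 65706 CPM. Chlorophyll synthesis genes fell more often than they rose, 10 against 5 of 17. HEMA1 (AT1G58290), at the start of the pathway, rose (0.63 ± 0.09, FDR = 1.2e-06), and GUN4 (AT3G59400) of the same list rose as well (0.66 ± 0.09, FDR = 6.8e-07). HEMB1 (AT1G69740), the next enzyme after aminolevulinate, fell from 236, 262 and 259 CPM to 167, 130.5 and 137 CPM (-0.80 ± 0.08, FDR = 1.6e-08). The protochlorophyllide reductases fell, PORA (AT5G54190) (-2.39 ± 0.38, FDR = 1.0e-05), PORB (AT4G27440) (-0.63 ± 0.07, FDR = 6.3e-08) and POR C (AT1G03630) (-0.62 ± 0.08, FDR = 9.1e-07).

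**Figure D3:**
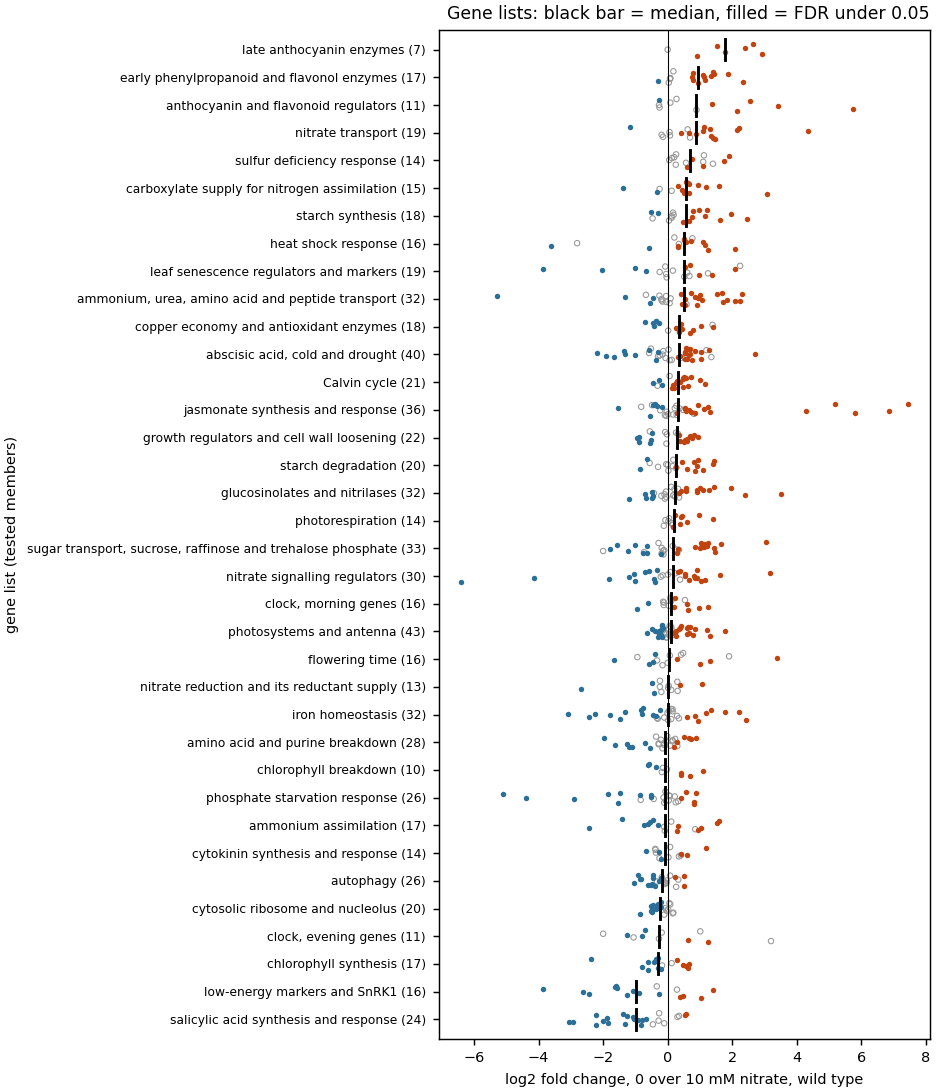
Log2 fold change of 0 over 10 mM nitrate for each tested member of the gene lists with at least 5 tested members, ordered by the list median (black bar). Filled points passed the FDR threshold of 0.05 (orange higher, blue lower) and open points did not; the lists with the highest and lowest medians were late anthocyanin enzymes (1.78) and salicylic acid synthesis and response (-0.99).

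The genes that gained the most CPM outside carbon fixation included PIP2A (AT3G53420), an aquaporin of the plasma membrane, at 650.2, 671 and 718 CPM at 10 mM and 1365, 1399 and 1459.7 CPM at 0 mM (1.05 ± 0.08, FDR = 2.3e-10). GER1 (AT1G72610), a germin-like protein, went from 760.1 ± 49.6 to 1572 ± 80.8 CPM (1.05 ± 0.09, FDR = 3.7e-10), MT3 (AT3G15353), a metallothionein that binds metals, from 793 ± 17.2 to 1466 ± 106 CPM (0.89 ± 0.07, FDR = 3.1e-10), and FED A (AT1G60950), leaf ferredoxin, from 1512 ± 65.0 to 2294 ± 219 CPM (0.60 ± 0.08, FDR = 1.7e-06). Among those that lost the most were SIP3 (AT4G30960), a kinase of the SOS3-interacting family, at 1148, 1081 and 1044 CPM and then 435, 437 and 512 CPM (-1.24 ± 0.09, FDR = 4.7e-11), and ORG1 (AT5G53450), at 653, 646 and 657 CPM and then 154, 145 and 188 CPM (-2.00 ± 0.15, FDR = 1.4e-10). Every 0 mM library of these 6 genes lay on its own side of the 10 mM libraries, as in 9364 of all 9843 called genes.

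Senescence genes were called in each direction no more often than all genes, and more autophagy genes fell than rose. Of 19 senescence genes 5 rose (26.3%) and 4 fell (21.1%), against 26.9% and 26.7% of all genes. The median log2 fold change of the senescence list was 0.51. The regulators NAP (AT1G69490) and WRKY53 (AT4G23810), which promote leaf senescence, rose from 36.6, 35.1 and 30.8 to 66.9, 93.8 and 107 CPM (1.39 ± 0.18, FDR = 8.8e-07) and from 6.54, 9.85 and 8.33 to 24.0, 35.7 and 45.5 CPM (2.09 ± 0.25, FDR = 1.7e-07), while SAG21 (AT4G02380) fell from 173, 123 and 129 CPM to 41.9, 30.6 and 30.1 CPM (-2.05 ± 0.16, FDR = 1.7e-10). NYC1 (AT4G13250), the first enzyme of chlorophyll b breakdown, rose (1.1 ± 0.15, FDR = 1.9e-06), and PPH (AT5G13800), pheophytinase, fell (-0.60 ± 0.09, FDR = 6.8e-06). In that list 4 of 10 rose (40%) and 3 fell (30%), or 1 fell without library 1 or library 3 at 0 mM. Of 26 autophagy genes 12 fell (46.2%) and 3 rose (11.5%), or 1 rose without library 3 at 0 mM or library 2 at 10 mM. Their median was -0.19. ATG8E (AT2G45170) and ATG8B (AT4G04620), the proteins that coat autophagosomes, fell from 73.8, 62.1 and 64.8 to 30.4, 37.2 and 30.5 CPM (-1.03 ± 0.12, FDR = 1.0e-07) and from 36.8, 36.6 and 38.7 to 19.1, 20.8 and 21.3 CPM (-0.88 ± 0.10, FDR = 1.5e-07), AtATG18a (AT3G62770) fell (-0.84 ± 0.11, FDR = 3.9e-07), and TOR (AT1G50030), the nutrient-sensing kinase that holds autophagy back, rose (0.52 ± 0.14, FDR = 0.0036).

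The 4 bHLH factors of subgroup Ib that plants induce under iron shortage fell, in an iron list that was split: 8 of 32 tested genes rose (25%), 12 fell (37.5%) and 12 did not pass the test, against 26.9% higher and 26.7% lower of all genes, with a median of 0.00. bHLH39 (AT3G56980) was at 85.6, 78.4 and 84.9 CPM at 10 mM and 11.7, 6.66 and 10.9 CPM at 0 mM (-3.08 ± 0.27, FDR = 1.1e-09), bHLH38 (AT3G56970) at 86.4, 88.6 and 80.4 CPM and 20.2, 14.7 and 18.5 CPM (-2.25 ± 0.26, FDR = 1.3e-07), and BHLH100 (AT2G41240) at 72.5, 67.2 and 68.9 CPM and 13.8, 7.05 and 17.38 CPM (-2.44 ± 0.24, FDR = 9.1e-09). BHLH101 (AT5G04150) fell (-1.33 ± 0.18, FDR = 1.0e-06). The other regulators of the list did not go one way. PYE (AT3G47640), a bHLH repressor, and BTS (AT3G18290), a ubiquitin ligase of the iron response, fell (-0.46 ± 0.12, FDR = 0.00256, and -0.35 ± 0.14, FDR = 0.0308), bHLH104 (AT4G14410) and bHLH34 (AT3G23210), activators of the subgroup Ib genes, rose (1.2 ± 0.19, FDR = 7.2e-06, and 0.83 ± 0.17, FDR = 1.9e-04), and FRU (AT2G28160), the FIT factor of root iron uptake, and ILR3 (AT5G54680) did not pass the test (-0.11 (FDR = 0.696), and 0.10 (FDR = 0.381)). The call of BTS was lost when any of the 6 libraries other than library 3 at 0 mM was left out (-0.37 to -0.22), and with upper quartile scaling (-0.31), and ILR3 passed without library 1 at 0 mM (0.23). The ferric reductase gene FRO3 (AT1G23020), itself induced by iron shortage, fell from 59.7 ± 3.53 to 21.3 ± 3.30 CPM (-1.48 ± 0.13, FDR = 8.4e-10). FER1 (AT5G01600), which encodes the iron store ferritin, was at 35.1, 28.9 and 34.98 CPM and 113, 128 and 95.9 CPM (1.76 ± 0.18, FDR = 1.5e-08). Of the other ferritin genes FER4 (AT2G40300) rose (0.61 ± 0.14, FDR = 8.8e-04), FER3 (AT3G56090) fell (-0.81 ± 0.12, FDR = 2.3e-06) and FER2 (AT3G11050) had too few counts to be tested. YSL1 (AT4G24120), a carrier of iron bound to nicotianamine, was at 6.54, 4.28 and 4.37 CPM and 28.0, 25.7 and 16.5 CPM (2.19 ± 0.20, FDR = 2.0e-09).

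Of 26 tested phosphate starvation genes 9 fell (34.6%), 5 rose (19.2%) and 12 did not pass the test, against 26.7% lower and 26.9% higher of all genes, and the median was -0.09. Those with the largest changes fell. AT5G03545, which the reference names for its response to phosphate starvation, was at 357, 366 and 436 CPM at 10 mM and 12.3, 11.8 and 9.43 CPM at 0 mM (-5.11 ± 0.20, FDR = 4.0e-15). SPX1 (AT5G20150), the phosphate sensor, was at 68.3, 68.9 and 69.7 CPM and 29.1, 24.5 and 20.1 CPM (-1.49 ± 0.13, FDR = 6.8e-10), and SRG3 (AT3G02040) at 48.0, 53.5 and 66.4 CPM and 8.69, 6.86 and 6.65 CPM (-2.92 ± 0.15, FDR = 4.8e-13). Those 3 separated the groups fully. IPS1 (AT3G09922), a non-coding RNA induced by phosphate shortage, had 45 counts over the 3 libraries at 10 mM and 2 at 0 mM, a ratio of 24.8 (6.47 to 211 at 95%, counting error only), and PHO1;H1 (AT1G68740), a phosphate exporter, fell (-1.53 ± 0.29, FDR = 9.2e-05). Among the genes that rose were the acid phosphatase PAP10 (AT2G16430) (0.83 ± 0.12, FDR = 2.9e-06) and NLA (AT1G02860), a ubiquitin ligase that links nitrogen and phosphate supply (0.81 ± 0.14, FDR = 2.1e-05). Of 14 tested sulfur deficiency genes 5 rose (35.7%, against 26.9% of all genes) and 9 did not pass the test, with changes from 0.05 to 1.9 over the list. APR2 (AT1G62180), the main adenylylsulfate reductase, was at 211, 244 and 249 CPM and 515, 474 and 516 CPM (1.1 ± 0.07, FDR = 8.1e-12). LSU2 (AT5G24660) and LSU1 (AT3G49580), induced by low sulfur, rose (1.9 ± 0.14, FDR = 1.1e-10, and 1.75 ± 0.46, FDR = 0.00239). Copper and antioxidant genes were 10 higher (55.6%) and 6 lower (33.3%) of 18, against 26.9% and 26.7% of all genes. Cytosolic ascorbate peroxidase APX1 (AT1G07890) rose (0.70 ± 0.07, FDR = 3.3e-08) and the copper regulator SPL7 (AT5G18830) fell (-0.45 ± 0.09, FDR = 2.2e-04).

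Salicylic acid genes fell as the list with the lowest median, -0.99. Of 24 tested members 16 fell and 2 rose, or 1 rose without library 3 at 0 mM or library 1 at 10 mM. PR1 (AT2G14610), the classical marker of salicylic acid signalling, was at 14.7, 24.2 and 12.1 CPM at 10 mM and 2.64, 2.15 and 1.29 CPM at 0 mM (-3.05 ± 0.69, FDR = 5.9e-04). PNP-A (AT2G18660), a secreted natriuretic peptide, was at 20.8, 34.3 and 25.4 CPM and 3.40, 3.13 and 3.88 CPM (-2.94 ± 0.26, FDR = 1.2e-09). WRKY54 (AT2G40750), a transcription factor of the pathway, was at 48.8, 55.2 and 50.0 CPM and 5.48, 13.1 and 19.4 CPM (-2.01 ± 0.21, FDR = 2.0e-08). All 0 mM libraries were below all 10 mM libraries in these genes, and NIMIN1 (AT1G02450), which binds the salicylic acid receptor NPR1, fell (-2.23 ± 0.32, FDR = 2.3e-06). SAG101 (AT5G14930), a lipase-like partner of EDS1, rose (0.54 ± 0.14, FDR = 0.00213).

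Of 36 tested jasmonate genes 16 rose (44.4%), 6 fell (16.7%) and 14 did not pass the test, against 26.9% higher and 26.7% lower of all genes. The steepest rises rested in part on a single library. PDF1.2c (AT5G44430), a plant defensin, was at 0, 0.214 and 0 CPM at 10 mM and 41.4, 5.49 and 1.109 CPM at 0 mM. PDF1.2 (AT5G44420) was at 1.02, 0.857 and 0 CPM and 52.9, 13.7 and 4.44 CPM. PAD3 (AT3G26830), the last enzyme of camalexin synthesis, was at 0.613, 1.71 and 1.46 CPM and 29.3, 9.79 and 4.07 CPM. WT library 1 at 0 mM had the highest level of all 3. Their log2 fold changes were 7.43, 5.19 and 3.49 with FDR of 5.1e-04, 1.8e-04 and 2.5e-05, and without that library they were 5.16, 3.82 and 2.46. PDF1.2c had 1 count over the 3 libraries at 10 mM, so its ratio of 230 spans 40.9 to 9120 at 95% from counting error alone. The defensin copies are near-identical, so their reads may be split between them. Without library 2 at 10 mM the value of PDF1.2c was 9.45. LOX4 (AT1G72520), a lipoxygenase of jasmonate synthesis, rose (1.32 ± 0.26, FDR = 1.6e-04), and JMT (AT1G19640), which makes volatile methyl jasmonate, went from 2.45, 1.71 and 1.46 CPM to 18.1, 13.3 and 10.4 CPM (2.87 ± 0.31, FDR = 3.4e-08). AOC2 (AT3G25770), an allene oxide cyclase of the same pathway, fell from 157, 149.9 and 143 CPM to 62.5, 46.0 and 45.3 CPM (-1.54 ± 0.16, FDR = 1.3e-08). Glucosinolate genes were 13 higher (40.6%) and 6 lower (18.8%) of 32, against 26.9% and 26.7% of all genes. The regulators MYB34 (AT5G60890) and MYB29 (AT5G07690) rose (1.44 ± 0.15, FDR = 1.3e-08, and 1.28 ± 0.16, FDR = 3.3e-07), and the enzymes of aliphatic glucosinolates BCAT4 (AT3G19710) and CYP79F2 (AT1G16400) fell (-0.69 ± 0.08, FDR = 2.3e-07, and -1.19 ± 0.13, FDR = 6.9e-08).

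Of 40 tested abscisic acid, cold and drought genes 17 rose (42.5%) and 9 fell (22.5%), against 26.9% and 26.7% of all genes, and the cold-induced genes among them, which were no list of their own, went both ways. COR15A (AT2G42540) and COR15B (AT2G42530), chloroplast proteins that protect membranes in the cold, were at 784, 733 and 761 and 191, 205 and 212 CPM (-1.9 ± 0.10, FDR = 4.0e-13) and at 76.2, 70.4 and 67.0 and 22.9, 21.9 and 22.9 CPM (-1.66 ± 0.11, FDR = 1.7e-11). DREB1A (AT4G25480), a transcription factor that induces them, fell (-2.18 ± 0.57, FDR = 0.00246) at 2.09 and 0.444 CPM. Its homologue CBF2 (AT4G25470) fell (-1.32 ± 0.20, FDR = 7.3e-06) and CBF1 (AT4G25490) did not pass the test (-0.58 (FDR = 0.159)), except without library 3 at 0 mM (-1.08). The cold-induced genes KIN1 (AT5G15960), LTI78 (AT5G52310) and COR47 (AT1G20440) fell (-1.35 ± 0.19, FDR = 1.3e-06; -0.59 ± 0.14, FDR = 7.8e-04; -0.35 ± 0.09, FDR = 0.00319), whereas KIN2 (AT5G15970) did not pass the test (-0.14 (FDR = 0.0961)), except on unscaled totals (-0.17). The cold-induced dehydrin gene ERD10 (AT1G20450) rose from 249 ± 14.0 to 506 ± 18.1 CPM (1.02 ± 0.09, FDR = 5.7e-10), RD22 (AT5G25610) rose (0.86 ± 0.11, FDR = 3.4e-07), and CYP707A3 (AT5G45340), which breaks abscisic acid down, rose as well (1.26 ± 0.21, FDR = 1.8e-05). Heat shock genes were 10 higher and 2 lower of 16 tested. HSFA2 (AT2G26150), a heat stress transcription factor, was at 4.29, 7.92 and 6.25 CPM and 19.8, 26.4 and 32.3 CPM (2.09 ± 0.27, FDR = 5.6e-07) and HSP101 (AT1G74310), a disaggregating chaperone, rose (1.24 ± 0.22, FDR = 3.3e-05), while HSP70 (AT3G12580) fell (-0.59 ± 0.12, FDR = 2.1e-04).

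Ribosome and nucleolus genes were lower by small amounts: 12 of 20 fell and 0 rose, or 1 rose without library 1 or library 3 at 0 mM, with a median of -0.25. ATARCA (AT1G18080), the RACK1 scaffold on the small subunit, was at 605, 589 and 638 CPM at 10 mM and 353, 308 and 357 CPM at 0 mM (-0.85 ± 0.07, FDR = 4.1e-10). NUC-L1 (AT1G48920), nucleolin, fell (-0.50 ± 0.09, FDR = 3.9e-05). Growth genes were mixed, 10 higher (45.5%) and 6 lower (27.3%) of 22, against 26.9% and 26.7% of all genes. PIF4 (AT2G43010), a factor that promotes elongation, fell from 132, 131 and 122 CPM to 63.7, 73.1 and 68.8 CPM (-0.90 ± 0.07, FDR = 2.8e-10), GA3OX1 (AT1G15550), which makes active gibberellin, fell (-0.88 ± 0.14, FDR = 1.1e-05), and RGA1 (AT2G01570), a DELLA repressor of gibberellin responses, rose (0.76 ± 0.11, FDR = 2.4e-06). IPT3 (AT3G63110), the nitrate-induced gene of cytokinin synthesis, fell from 37.2, 40.9 and 42.5 CPM to 32.5, 21.2 and 21.1 CPM (-0.69 ± 0.13, FDR = 8.5e-05) and CKX7 (AT5G21482), which degrades cytokinin, rose (1.19 ± 0.18, FDR = 5.1e-06). Of 14 cytokinin genes 3 rose and 3 fell (21.4% each), no more than among all genes. Without library 1 at 10 mM 1 was lower, and without library 2 at 10 mM 5 were lower. Of 16 flowering genes 4 rose and 4 fell (25% each), again no more than among all genes. AGL20 (AT2G45660), the floral integrator SOC1, fell from 79.7, 65.3 and 63.9 CPM to 22.7, 20.8 and 22.9 CPM (-1.65 ± 0.15, FDR = 1.4e-09). SPL5 (AT3G15270), a target of miR156 that promotes flowering, rose from 2.25, 1.93 and 1.87 CPM to 19.6, 21.7 and 22.2 CPM (3.38 ± 0.22, FDR = 8.1e-12). Of 16 morning clock genes 6 rose and 2 fell, and of 11 evening genes 2 rose and 3 fell. Among all genes 26.9% were higher and 26.7% lower. Morning genes thus rose more often than all genes and fell less often. Evening genes rose less often than all genes and fell about as often. CCA1 (AT2G46830), a morning factor, went from 102 ± 5.98 to 245 ± 11.4 CPM (1.26 ± 0.07, FDR = 2.4e-12) and GI (AT1G22770), an afternoon gene, from 12.2 ± 0.707 to 29.2 ± 1.26 CPM (1.26 ± 0.13, FDR = 1.8e-08).

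Beyond these lists, the 15 steepest rises and 15 steepest falls among genes with a mean of at least 5 CPM, a symbol and no overlap held genes of surface lipids and of signalling. KCS2 (AT1G04220), a fatty acid elongase of wax and suberin synthesis, was at 10.6, 9.42 and 6.45 CPM at 10 mM and 61.0, 58.0 and 60.3 CPM at 0 mM (2.75 ± 0.20, FDR = 5.8e-11). KCS8 (AT2G15090), an elongase of the same family, went the other way, from 102, 79.2 and 91.4 CPM to 15.5, 12.5 and 16.6 CPM (-2.61 ± 0.12, FDR = 3.8e-14). NEET (AT5G51720), an iron-sulfur protein of plastid and mitochondrion, was at 27.6, 21.0 and 24.8 CPM and 194, 164 and 174 CPM (2.85 ± 0.19, FDR = 1.3e-11). The rule that picked these 3 genes required groups without overlap, so their separation is no further result. SR1 (AT5G01820), a protein kinase, rose from 8.66 ± 1.96 to 60.7 ± 4.65 CPM (2.81 ± 0.20, FDR = 4.3e-11) and DIP2 (AT5G03210) from 18.1 ± 1.62 to 117 ± 22.2 CPM (2.69 ± 0.17, FDR = 6.9e-12). Among the falls were SIS (AT5G02020) (-3.08 ± 0.16, FDR = 3.0e-13), the receptor kinase RK3 (AT4G21380) (-2.56 ± 0.20, FDR = 1.5e-10), the transcription factor NAC004 (AT1G02230) (-4.43 ± 0.24, FDR = 7.9e-13) and the glyoxalase family gene GLYI4 (AT1G15380), at 18.19, 13.9 and 10.4 CPM and 0.189, 0.392 and 0.739 CPM (-4.93 ± 0.62, FDR = 3.5e-07).

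The WT libraries at 2 mM nitrate were set beside these changes. They also stood apart in clock genes, as given below, which cannot be told apart from the dose. Between 0 and 2 mM 7782 genes (42.4%) passed the test, 3723 higher and 4059 lower at 0 mM, in a comparison that shares the 0 mM libraries. Of the 1444 genes at least 2-fold higher at 0 than at 10 mM, the mean at 2 mM lay between the other means in 779, above both in 381 and below both in 284. Of the 1039 genes at least 2-fold lower, the counts were 659, 171 and 209. NRT1.1 was at 68.3, 86.1 and 69.8 CPM at 2 mM, close to its values at 10 mM (0 against 2 mM, 1.56 ± 0.09, FDR = 1.2e-13). NIA1 was at 72.7, 62.1 and 48.1 CPM, where 0 against 2 mM did not pass the test (0.19 ± 0.19, FDR = 0.462), and SLAH3 and PPCK1 were at 26.8, 21.8 and 23.9 and 22.9, 22.2 and 19.0 CPM, close to their values at 0 mM. CLC-A lay between the other doses at 147, 132 and 147 CPM (-0.85 ± 0.09, FDR = 2.1e-08), and UMAMIT33 was near its 0 mM level at 1.74, 1.23 and 1.72 CPM. Other genes were highest at 2 mM: ASN1 at 224, 117 and 163 CPM, SEN1 at 199, 115 and 134 CPM and PORB at 1223, 1195 and 1267 CPM.

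Clock genes also stood apart at 2 mM. The morning gene LHY (AT1G01060) was at 469, 495 and 467 CPM at 10 mM, 33.7, 29.6 and 24.8 CPM at 2 mM and 741, 726 and 753 CPM at 0 mM, and GI averaged 98.7 CPM at 2 mM, above both other doses. The nitrate dose and this separation of the clock genes at 2 mM cannot be told apart. LHY differed less between 0 and 10 mM (0.63 ± 0.07, FDR = 1.2e-07), and the part of the clock in that comparison was not tested.

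**Figure D4:**
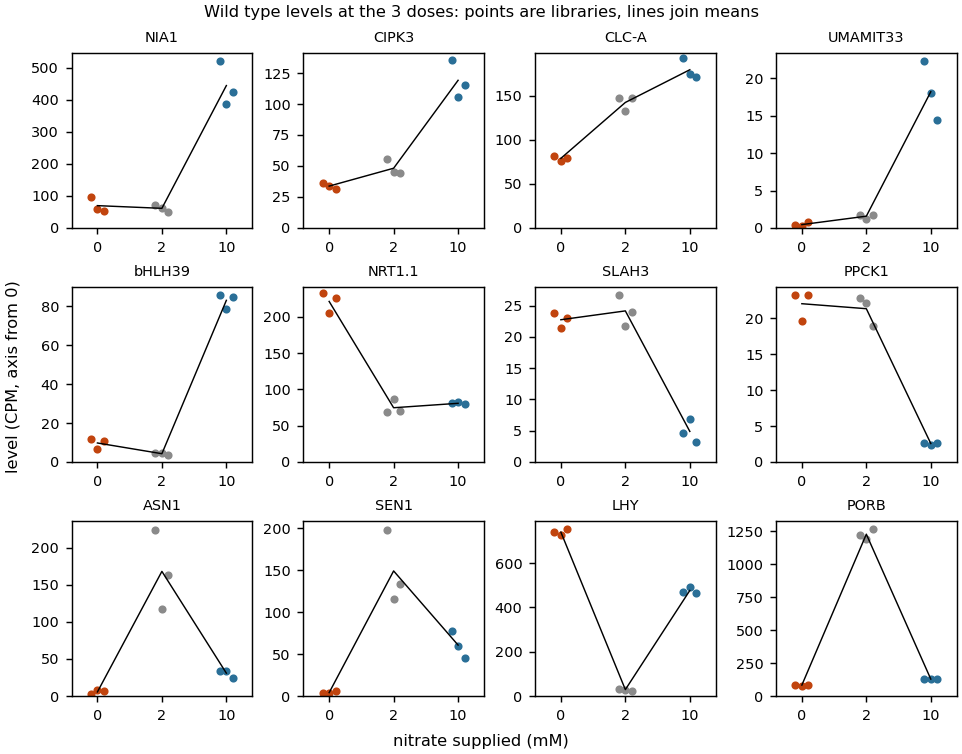
Levels (CPM, vertical axes from 0) of 12 genes in the WT libraries at 0, 2 and 10 mM nitrate, with lines through the group means. At 2 mM NIA1, SLAH3 and PPCK1 sat near their 0 mM levels and NRT1.1 near its 10 mM level, whereas ASN1, SEN1 and PORB were highest and LHY lowest at 2 mM. The dose and the separation of clock genes at 2 mM cannot be told apart.

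The same contrast in era1 rosettes gave 10197 called genes (55.5%), and the difference between the genotypes' responses passed the test in 6405 genes (34.9%). The genotype label prints AT5G66470, whereas ERA1, the gene of the farnesyltransferase beta subunit, is AT5G40280. ERA1 was at 9.26 ± 0.453 and 9.50 ± 0.758 CPM in WT at 10 and 0 mM and at 1.39 ± 0.295 and 2.29 ± 0.407 CPM in the libraries labelled era1. Of the 9843 genes called in WT, 4320 responded differently in era1, and in 3537 of those the difference pointed toward a smaller response than in WT. Of the 1444 genes at least 2-fold higher in WT 672 differed and 610 pointed that way, and of the 1039 lower genes 520 and 440. All these counts compare responses over the same WT libraries that chose the genes, so the direction is in part set by that choice.

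NIR1, which did not pass the test in WT, was at 516, 386 and 509 CPM in era1 at 10 mM and 78.0, 83.5 and 55.1 CPM at 0 mM, and the responses differed by -2.72 ± 0.17, FDR = 2.0e-11. NRT2.5, with 1 and 2 counts in WT, was at 0, 0 and 0 CPM in era1 at 10 mM and 16.5, 22.3 and 22.7 CPM at 0 mM. It rose within era1 (fitted change 9.79, FDR = 2.2e-11), but with no count at 10 mM the size of that change is not fixed by the data. LBD39 fell (-6.11 ± 0.28, FDR = 4.6e-15) in era1, a response that differed from WT by -5.06 ± 0.37, FDR = 3.9e-10, and LBD38 and HBI1 differed by -2.63 ± 0.33, FDR = 1.2e-06 and -2.69 ± 0.17, FDR = 2.1e-11. Genes of assimilation and nitrate storage also responded more in era1: GLN1;4 differed by 2.89 ± 0.42, FDR = 8.4e-06, ASN2 by -2.18 ± 0.14, FDR = 3.6e-11 and CLC-A by -2.34 ± 0.15, FDR = 2.2e-11. Other genes moved less or the other way. PPCK1 did not pass the test within era1 (0.31 ± 0.16, FDR = 0.107) and differed from WT by -2.78 ± 0.27, FDR = 2.7e-08, and LSU1 fell (-3.05 ± 0.32, FDR = 1.2e-08) in era1, where it rose in WT (difference -4.80 ± 0.55, FDR = 3.3e-07). Of the 43 photosystem and antenna genes 41 responded differently in the genotypes. For NRT1.1 and NIA1 the difference was not past the threshold (0.16 ± 0.12, FDR = 0.327, and 0.08 ± 0.25, FDR = 0.828).

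**Figure D5:**
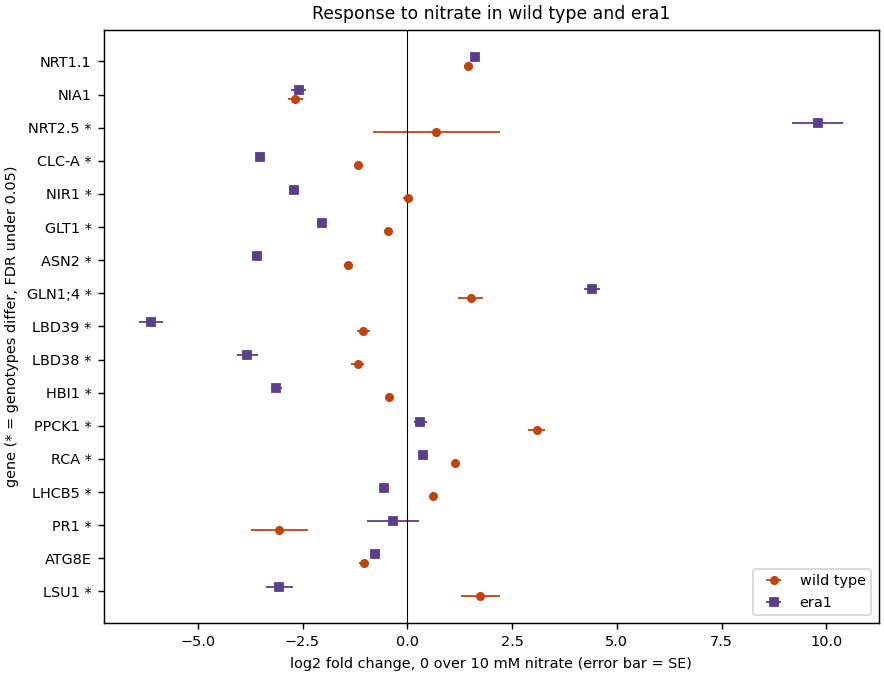
Log2 fold change of 0 over 10 mM nitrate ± SE in WT (circles) and era1 (squares) for 17 genes, with an asterisk where the 2 responses differed at an FDR under 0.05. NIR1 and LBD39 fell further in era1, and PPCK1 and RCA rose less. The WT value of NRT2.5 rests on 1 and 2 counts, and its era1 value on no count at 10 mM, so its size and error bar are not fixed by the data.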

How the data were processed

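RNA of rosettes was sequenced as single-end, stranded 3' tags from polyA-selected RNA with a QuantSeq kit, per the labels' protocols. The tool TopHat2 and the genome build TAIR10 appear, with no role given, in the submitters' processing notes. Tool versions, annotation and the strand setting of the counting are not given in these sources, so overlapping and antisense genes are uncertain. The authors deposited raw, unnormalized read counts per gene, in a table per library. Each table also held 5 summary counters that name no gene and stayed out of library sizes and tests. At 0 and 10 mM, 5.43% and 3.98% of read records fell outside genes. Reads without a unique alignment were set aside before counting, which makes near-identical copies (RBCS, LHCB1, PDF1.2) uncertain. Tags near the transcript end were not scaled by length, so levels are not compared between genes.

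The quasi-likelihood test of edgeR 4.0.16 (R 4.3.3) was run on all 18 libraries as 6 groups, with TMM scaling, filterByExpr (minimum count 10, minimum total 15) and Benjamini-Hochberg adjustment over 18358 genes at an FDR of 0.05. The 6 libraries compared held 4748044 to 5594584 gene counts, and replicate pairs differed by more than sampling noise (chi-square per degree of freedom 1.50 to 4.06). Alternatives were DESeq2 1.42.0, other scalings and filters, fewer libraries, a replicate block and leaving out each library. The test was also run on simulated counts with far fewer changed genes than were called here, so that run does not vouch for the error rate of these calls.

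Names of genes were read from RefSeq's TAIR10.1 gene table, whose build differs from that of the files, so no coordinates or sequences are given. Of 915 list members written in 42 lists, 860 matched by ID and name. The comparison, the members and the lists were chosen with earlier results of these data known. Genes were named by rule: the 15 highest and 15 lowest changes with a mean of at least 5 CPM, a symbol and no overlap; the 10 that gained and the 10 that lost the most CPM; the 6 largest changes of each list and up to 3 against its direction; any member of the nitrate transport, reduction, assimilation and signalling lists; and the 10 with the largest difference between genotypes. Those printed were picked from these after their values were seen. Further iron, sugar and cold genes were added beside them, also with their values known, to show members that went against the others.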

Additional observations from a re-analysis of the deposited data

Results flagged for a closer look

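The responses to 0 against 10 mM nitrate differed between era1 and WT in 6405 genes (edgeR quasi-likelihood test of the interaction, FDR under 0.05). The genes named above that are among them are given here. Most of these were picked on their change in the same WT libraries, so a smaller response in era1 is in part set by that choice. Each value is the log2 fold change of 0 over 10 mM in era1 minus that in WT, so a negative value marks a response that was lower in era1. No explanation was tested, and the 2 genotypes do not share libraries in this contrast.

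Genes of nitrate transport and assimilation that did not pass the test in WT differed by 9.11 for NRT2.5, which rose in era1, and by -2.72 for NIR1, -2.04 for UPM1 and -0.80 for NIA2, which fell in era1. CLC-B (-1.05), GS2 (-0.88) and AT1G52190 (-0.51) fell in era1 too, as did the cold-induced gene KIN2 (-0.65).

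Several genes that fell in WT fell further in era1. Among transport, assimilation and signalling genes these were LBD39 (-5.06), HBI1 (-2.69), LBD38 (-2.63), CLC-A (-2.34) and ASN2 (-2.18). GLT1 (-1.57), P5CS1 (-1.76), AAP1 (-0.54) and the cytokinin gene IPT3 (-1.14) did so as well. Growth and jasmonate genes of this kind were GA3OX1 (-2.09), PIF4 (-0.87) and AOC2 (-0.81). Cold, sugar and iron genes were KIN1 (-1.47), LTI78 (-0.72), SAG29 (-2.70) and FER3 (-0.48). Pigment and light-harvesting genes were PORB (-1.33), SNG1 (-1.12), PETE1 (-0.85), LHCB2.2 (-0.83), PSAO (-0.66), CAB3 (-0.60), LHCA1 (-0.57) and HEMB1 (-0.34).

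Other genes rose further in era1 than in WT. The cytosolic glutamine synthetases GLN1;4 and GSR 1 differed by 2.89 and 1.39, the GATA factor CGA1 by 1.1 and AOX1A by 0.86. Smaller differences were those of AT2G43500 (0.70), LDOX (0.65), AAP4 (0.36) and CT-BMY (0.32).

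Some genes rose in WT and fell in era1. The sulfur genes LSU1 and APR2 differed by -4.80 and -1.32, fumarase FUM2 by -3.14, DiT1 by -1.7, AT2G26690 by -1.60 and GLU1 by -0.71. Chloroplast genes of this kind were HEMA1 (-1.57), FED A (-1.22), LHCB5 (-1.18), CAB1 (-1.1), GUN4 (-1.1), RBCS1A (-0.81) and GNC (-0.63). A smaller set fell in WT and rose in era1, namely GAD (2.80), WRKY54 (2.68), AAT1 (2.59), ATG8B (1.13) and ASN3 (0.98).

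A further group of genes rose in WT and rose less in era1, or did not pass the test there. Carbon and nitrogen genes among them were PPCK1 (-2.78), ProT3 (-2.35), SLAH3 (-1.32), GolS2 (-1.14), UMAMIT11 (-0.82), NRT2.7 (-0.55), GLN1.3 (-0.54), PPC1 (-0.50) and SPS1F (-0.35). Photosynthesis genes were LHCB4.3 (-1.21), SBPASE (-1.0), PETC (-0.83), NPQ4 (-0.82), RCA (-0.78), GDCH (-0.69) and SHM1 (-0.53). Regulators were SPL5 (-2.83), MYB29 (-1.57), MYB34 (-1.27), AT4G38340 (-1.18), PAP1 (-0.80), NAP (-0.78), NLP7 (-0.77) and the cytokinin gene CKX7 (-0.81). Flavonoid, defence and stress genes were PAD3 (-2.76), JMT (-2.12), FLS1 (-1.28), 4CL3 (-1.01), ERD10 (-1.08), RD22 (-0.90) and APX1 (-0.55). The remaining genes of this kind were KCS2 (-2.66), NEET (-2.19), LSU2 (-1.74), GER1 (-1.18), PIP2A (-1.15), DIP2 (-1.02) and PAP10 (-0.91).

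Genes that fell in WT and less so in era1, or did not pass the test there, were led by GLYI4 (4.86) and NAC004 (4.22). Defence and senescence genes among them were PR1 (2.71), PNP-A (2.21), RK3 (2.37), SAG21 (1.49) and CYP79F2 (1.08). Phosphate and metal genes were AT5G03545 (2.39), SRG3 (0.96), SPX1 (0.52) and SPL7 (0.39). Genes of breakdown and recycling were AGT3 (1.62), AtATG18a (0.87), GDH1 (0.76), PPH (0.65) and DIN4 (0.60). The others were AGL20 (1.04), HSP70 (0.79), TGA4 (0.78), TPS10 (0.63), COR15B (0.50), CIPK23 (0.50), SIP3 (0.42) and NUC-L1 (0.36).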

How the results depend on the processing

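The counts of genes and the read shares kept their direction and stayed within 1.5 times under other scalings, filters, tools and sets of libraries, except that 667 genes rather than 1039 were at least 2-fold lower when a mean of at least 5 CPM was required, which tested 15078 genes. DESeq2 called 4482 higher and 4256 lower genes. Between scalings the share of higher genes among the calls ran from 47.7% to 53.9%. Leaving out each library in turn gave 4436 to 4892 higher genes, 4363 to 4470 lower genes, 1428 to 1562 genes at least 2-fold higher, 995 to 1056 at least 2-fold lower, 6791 to 7421 called between 0 and 2 mM and 5508 to 6671 with a difference between genotypes. It gave differences of 1.94 to 2.11 percentage points in the organelle share and 2.69 to 2.96 points in reads without a unique alignment. None of the named genes changed direction with a call under any alternative. Same-numbered libraries did not deviate together more than others (correlations -0.0511, 0.0111 and -0.0128, against -0.065 to 0.0691 for unlike numbers). This check cannot tell whether equal numbers shared a harvest or a preparation. A fit with the replicate number as a block called 4915 higher and 4885 lower genes. Genes with few counts at either dose, and library 1 at 0 mM for defence genes, set the precision of the steepest changes.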
